A study of Homo sapiens with 6 samples.

Results

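The serpins of clade B are intracellular protease inhibitors without a classical signal peptide. A typical member offers its reactive centre loop as bait to a protease and traps the enzyme when the loop is cut, while some members have lost this activity. On the long arm of chromosome 18 a run of these genes lies side by side, and several of them are known as products of squamous epithelium, the tissue of skin, mouth, oesophagus and cervix. SERPINB3 and SERPINB4 were first known as squamous cell carcinoma antigens. The 9 genes described here are SERPINB3, SERPINB4, SERPINB5, SERPINB7, SERPINB8, SERPINB10, SERPINB11, SERPINB12 and SERPINB13, taken by symbol from the platform annotation, of 17687 genes with a probe set in all. Each of the 9 had a single probe set annotated to it alone, so the rule of taking the brightest probe set left out none of these. Probe sets annotated to several genes were not counted. The group was chosen by gene name, brightness of the probe set and the measured log2 values of SERPINB3 and SERPINB4 in all 3 groups, whose large response to EGF was already known. Those 2 genes are therefore described by their values, without p-values, and counts of calls are given for the other 7 members as well as for all 9.

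Gene expression was measured in A431, an established line from a human epidermoid carcinoma that carries unusually many EGF receptors, with 1 array for each of 6 samples. All cells were grown with 10% serum and starved for 24 h. Of the 3 groups of 2 arrays, the control group had no treatment, the EGF group received 100 ng/ml of epidermal growth factor (EGF), and the EGF plus gefitinib group received 100 ng/ml EGF and 10 µM gefitinib, an inhibitor of the kinase of the EGF receptor. The labels give a harvest after 30 min. Whether this was the whole time with EGF is unsure, given the size of the changes in messenger RNA described below, and no timing is read from these data. In which order EGF and gefitinib were added is not said. Replicates are labelled biological, but nothing says that separate cultures were used, so the spread behind each p-value may be technical. Precision is limited by the small number of arrays.

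The label of an epidermoid line was set against marker genes. All 7 keratinocyte markers with a probe set (KRT5, KRT14, EGFR, DSG3, ITGB4, CDH1 and SFN) lay above the background limit on both arrays of each group, against 1 of 7 leukocyte markers (CD68), 1 to 2 of 5 fibroblast markers (LUM in each group, COL1A2 in the control only) and 0 of 5 endothelial markers. The background limit is the 95th percentile of 612 negative-control probe sets on the same array, which ran from 7.14 to 7.65 on the log2 scale, and 38.4% to 42.1% of the transcript probe sets lay above it. The log2 levels summed over the markers of a list ran from 96.6 to 99 over the groups for keratinocyte, 39.3 to 41.2 for leukocyte, 29.8 to 33.1 for fibroblast and 20.4 to 23.8 for endothelial markers. Outside the keratinocyte list most markers were not above the limit on both arrays, so those sums rest largely on background values. The part of these shifts in the results below was not tested, and in such bulk RNA fewer cells of a kind and less RNA per cell cannot be told apart.

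SERPINB3 and SERPINB4 are recent copies of each other, and their promoters show how alike they are. Over the 300 bases from 250 before to 50 after the annotated start (RefSeq, GRCh38.p14), the genes shared 296 bases, or 98.7%. The other 20 pairs among the 7 members that had a promoter window shared 17.0% to 31.3% in the same ungapped alignment. The 250 bases before the start of each are shown because these promoters belong to the genes that changed most, and capitals mark the 3 bases at which they differ.
SERPINB3, chr18:63661894-63662143, minus strand: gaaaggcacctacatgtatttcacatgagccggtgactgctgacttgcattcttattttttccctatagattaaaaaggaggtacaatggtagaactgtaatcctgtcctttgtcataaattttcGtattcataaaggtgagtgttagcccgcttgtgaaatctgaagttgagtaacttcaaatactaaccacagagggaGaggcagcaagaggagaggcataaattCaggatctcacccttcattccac
SERPINB4, chr18:63644257-63644506, minus strand: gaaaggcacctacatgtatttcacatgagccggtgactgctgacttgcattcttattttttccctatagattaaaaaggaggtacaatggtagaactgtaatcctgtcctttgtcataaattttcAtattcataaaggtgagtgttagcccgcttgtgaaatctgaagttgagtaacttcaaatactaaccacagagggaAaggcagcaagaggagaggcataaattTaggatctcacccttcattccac
With positions counted from 1 at the first base shown and the SERPINB3 base given first, the differences were G126A, G201A and C228T, and the remaining difference of the window, T260C, lay after the start. Since the transcripts are also near-identical, each probe set may detect RNA of both genes, and the split between them is uncertain.

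The promoters of the 3 other members that were measured above background and rose with EGF are shown for comparison. Capitals mark matches to the AP-1 motif TGANTCA, which reads the same on both strands.
SERPINB5, chr18:63476708-63476957, plus strand: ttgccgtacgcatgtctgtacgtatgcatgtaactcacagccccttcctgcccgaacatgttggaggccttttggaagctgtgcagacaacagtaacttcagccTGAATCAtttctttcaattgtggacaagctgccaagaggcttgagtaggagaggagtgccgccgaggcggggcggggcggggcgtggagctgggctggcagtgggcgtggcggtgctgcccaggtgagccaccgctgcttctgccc
SERPINB8, chr18:63969831-63970080, plus strand: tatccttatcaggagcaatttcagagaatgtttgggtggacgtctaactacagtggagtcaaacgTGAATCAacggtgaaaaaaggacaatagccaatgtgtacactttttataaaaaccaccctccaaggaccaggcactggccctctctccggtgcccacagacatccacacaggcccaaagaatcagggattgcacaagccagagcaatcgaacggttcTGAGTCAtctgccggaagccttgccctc
SERPINB13, chr18:63587093-63587342, plus strand: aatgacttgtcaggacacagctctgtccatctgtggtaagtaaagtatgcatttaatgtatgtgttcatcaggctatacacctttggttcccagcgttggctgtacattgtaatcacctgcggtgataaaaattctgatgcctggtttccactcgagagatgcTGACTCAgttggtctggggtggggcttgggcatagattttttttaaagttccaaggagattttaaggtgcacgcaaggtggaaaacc
Of the 7 members with a window, 5 held at least 1 AP-1 match (SERPINB5, SERPINB7, SERPINB8, SERPINB12 and SERPINB13). Some genes have several annotated starts, and 6 of the 10 windows of these members held a match. Of all 35116 promoter windows of that length, 7.71% held a match. The windows of SERPINB3 and SERPINB4 held no AP-1 match, which says only that they are not in these bases. A match to the TATA box letters TATAAA, searched on both strands, stood in the windows of SERPINB7, SERPINB8, SERPINB12 and SERPINB13 and in 11.5% of all windows, and the pair of matches in SERPINB8 overlap each other. The STAT letters TTCNNNGAA matched in SERPINB7, SERPINB8 and SERPINB12 (7.66% of all windows), and the ETS core AGGAAG in SERPINB3, SERPINB4, SERPINB5, SERPINB7 and SERPINB12 (33.6%). No member window held the CRE letters TGACGTCA (1.85%) or a match to the NF-kB motif searched (0.558%). These matches are a description of the letters and do not show that a factor binds there.

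**Figure D1:**
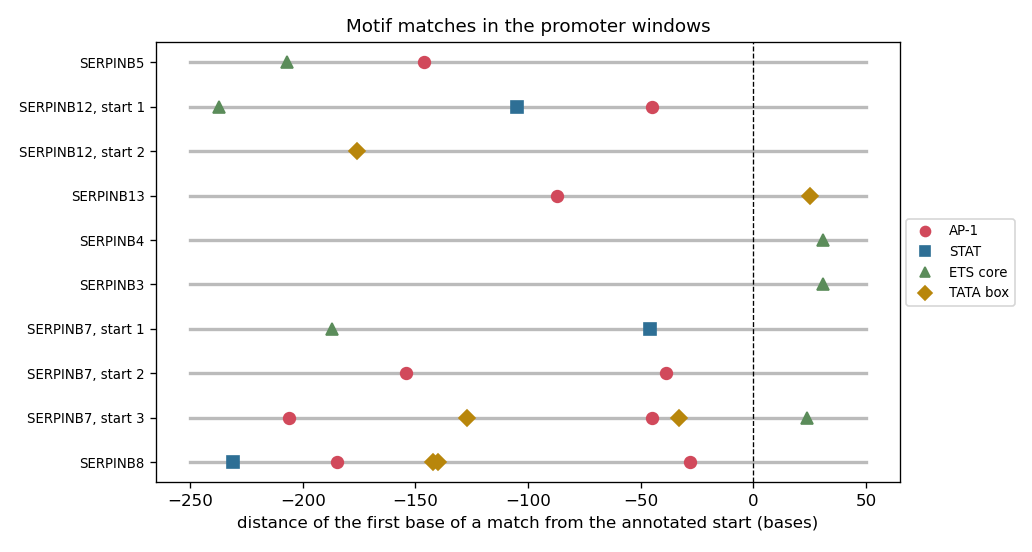
Matches to 4 motifs in the 10 promoter windows of 7 members, drawn by the distance in bases of the first base of a match from the annotated start (dashed line). Grey lines are the windows, and a symbol is a match on either strand. AP-1 matches (circles) lie in 6 windows and are missing from the lines of SERPINB3 and SERPINB4.

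With EGF, 5 of the 9 genes rose and 0 fell at an adjusted p under 0.05 (limma), where 11.9% of all probe sets were called, 6.61% higher and 5.3% lower. At an unadjusted p under 0.05 the counts were 7 and 0, where 5677 of all 21448 probe sets passed in either direction. Of the 7 members other than SERPINB3 and SERPINB4, 3 rose (SERPINB5, SERPINB8 and SERPINB13) and 0 fell (5 and 0 unadjusted), with a median log2 change of 1.0. The median of the fitted log2 changes was 1.59 over the 9 members and -0.03 over all probe sets. The value of 1.59 is that of SERPINB7, which lay at background. As the group was chosen with part of this response known, nothing is read from the counts over all 9, here or in the comparisons that follow.

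SERPINB3 is an inhibitor of papain-like cysteine proteases such as cathepsins L, K and S. Its log2 values were 7.06 and 7.37 on the control arrays, 12.70 and 12.70 on the EGF arrays, and 5.93 and 5.28 on the EGF plus gefitinib arrays. It stood out with EGF only, and lay at or below the background limit on all other arrays. The EGF level was at least 42.6-fold that of the control and at least 37.6-fold that of EGF plus gefitinib, both lower bounds that put the background limit in place of the dimmer group. The fitted log2 differences were 5.49 ± 0.25 and -7.10 ± 0.25 (± SE from limma, n = 2 per group). With the 99th percentile of the negative controls as the limit, the bounds came down to 9.15-fold and 8.56-fold.

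SERPINB4, which prefers chymotrypsin-like serine proteases such as cathepsin G and mast cell chymase, followed the same course. Its log2 values were 7.27 and 6.93 on the control arrays, 12.52 and 12.80 on the EGF arrays, and 5.88 and 5.38 on the EGF plus gefitinib arrays. Only the first of the control arrays was above the limit, and the means differed 47.1-fold between EGF and control. With the mean limit of the control arrays in place of the control mean, an alternative chosen after seeing the data, the value was 41.3-fold. EGF plus gefitinib lay at least 36.4-fold below EGF alone. With the stricter limit these became bounds of 8.86-fold and 8.30-fold. Over the 6 arrays, with each gene centred on its own mean, SERPINB3 and SERPINB4 were 0.53 log2 units apart (Euclidean distance). SERPINB13, SERPINB8 and SERPINB5 were 4.50, 4.91 and 6.43 from SERPINB3. The closeness of the pair is no separate result, since both genes were chosen with their values known and each probe set may detect RNA of both.

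SERPINB13, also called headpin or hurpin, is another inhibitor of cathepsins L and K. It measured 11.40 and 11.31 in the control, 13.93 and 13.80 with EGF, and 11.08 and 11.18 with EGF plus gefitinib. The EGF arrays were high and did not overlap with either other group. Such a lack of overlap held for 55.5% of all probe sets between EGF and control. It held for 57.1% between EGF plus gefitinib and EGF. SERPINB13 was 5.69-fold higher with EGF than in the control (log2 difference 2.51 ± 0.17, limma adjusted p = 0.000593) and 6.66-fold lower with gefitinib added (-2.73 ± 0.17, adjusted p = 0.000264). Between EGF plus gefitinib and control the log2 difference was -0.23, with a 95% interval from -0.63 to 0.18 (adjusted p = 0.516).

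SERPINB8 inhibits the proprotein convertase furin. Its log2 values were 9.52 and 9.31 in the control, 10.94 and 11.07 with EGF, and 8.38 and 8.40 with EGF plus gefitinib. Here the 3 groups did not overlap, and the arrays with gefitinib lay below those of the untreated cells. Between EGF plus gefitinib and control, 50.4% of all probe sets did not overlap. The rise with EGF was 3.0-fold (1.59 ± 0.18, limma adjusted p = 0.00299) and the fall with gefitinib against EGF alone 6.11-fold (-2.61 ± 0.18, adjusted p = 0.000339). The stricter limit turned this last value into a bound of at least 2.64-fold. Against the control, EGF plus gefitinib was 2.03-fold lower (-1.02 ± 0.18, adjusted p = 0.031), but this call was lost without any 1 of the 6 arrays, at log2 differences of -1.13 to -0.92.

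SERPINB5, known as maspin, lacks inhibitory activity against most proteases and is known as a suppressor of invasion in breast epithelium. It measured 14.09 and 13.98 in the control, 14.93 and 15.13 with EGF, and 14.09 and 14.17 with EGF plus gefitinib. Control and EGF plus gefitinib arrays lay close together, and both EGF arrays were higher. The change was 2.0-fold up with EGF (1.0 ± 0.18, limma adjusted p = 0.0143) and 1.86-fold down with gefitinib against EGF (-0.90 ± 0.18, adjusted p = 0.0134). Between EGF plus gefitinib and control the log2 difference was 0.10, with a 95% interval from -0.32 to 0.52 (adjusted p = 0.799). The call with EGF was lost when any of the 4 arrays compared was left out (0.90 to 1.10), and that with gefitinib without EGF 1, EGF 2 or EGF plus gefitinib 1 (-1.0, -0.80 and -0.86).

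The other 4 members lay at or below the background limit on all arrays, so their levels have only an upper bound and no fold is given. SERPINB7, or megsin, whose loss causes a palmoplantar keratosis, measured 4.96 and 5.09 in the control, 6.83 and 6.39 with EGF, and 3.68 and 5.06 with EGF plus gefitinib. Its EGF arrays were the highest while the other groups overlapped. The log2 difference was 1.59 ± 0.42 for EGF against control (limma adjusted p = 0.0525) and -2.24 ± 0.42 for EGF plus gefitinib against EGF (adjusted p = 0.0107), the latter not called without EGF 1 (-2.02). The former was called with quantile normalization (1.62, limma adjusted p = 0.0444), median centring (1.64, adjusted p = 0.0469), an intensity trend or only the 2 groups compared. It was not called with the replicate block (adjusted p = 0.0688) or when an array compared was left out (1.36 to 1.81). Leaving out an array of the third group gives the same fit as the 2 groups alone. Such a fit does not test the arrays compared, here and where calls are counted over 6 fits below.

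SERPINB10, or bomapin, a nuclear serpin of blood-forming cells, ran from 4.54 to 5.31 over the 6 arrays. SERPINB11, which in humans is thought to have lost its inhibitory function, ran from 2.71 to 3.77. SERPINB12, an inhibitor of trypsin-like proteases, ran from 4.12 to 4.67. None of these 3 genes was called by limma in any of the comparisons, with adjusted p-values from 0.0821 for SERPINB10 with EGF to 0.988 for the same gene between EGF plus gefitinib and EGF.

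**Figure D2:**
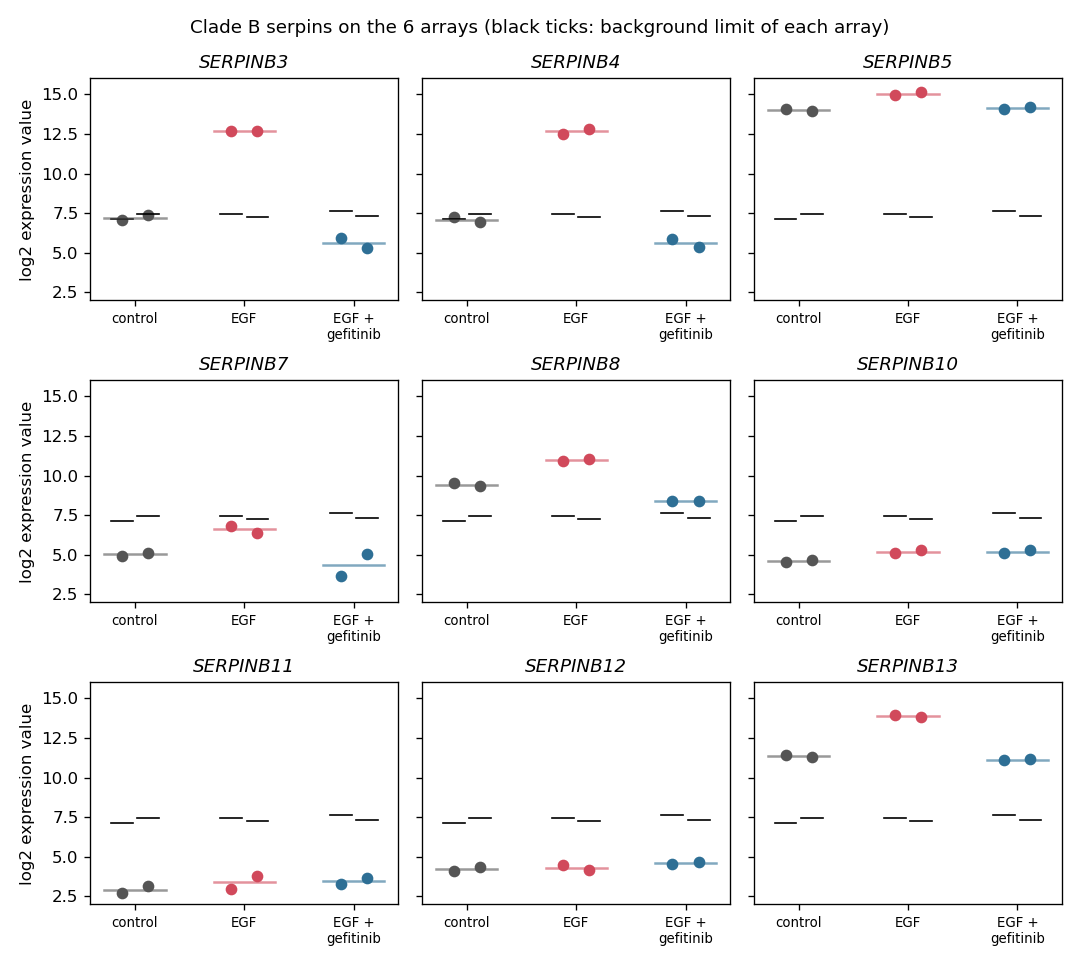
Log2 expression values of the 9 members on each of the 6 arrays. Points are arrays, wide coloured lines the group means, and short black ticks the background limit of each array. SERPINB3 and SERPINB4 are far above the limit with EGF only (1 control array of SERPINB4 just exceeds it), SERPINB5, SERPINB8 and SERPINB13 are above it on all arrays, and SERPINB7, SERPINB10, SERPINB11 and SERPINB12 stay below it.

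When gefitinib was given with EGF, 6 of the 9 members were lower than with EGF alone and 0 were higher, where 18.7% of all probe sets were called, 8.86% higher and 9.81% lower. At an unadjusted p under 0.05 the counts were the same, 6 lower and 0 higher. There, 6732 of all 21448 probe sets passed in either direction. Of the 7 members other than SERPINB3 and SERPINB4, 4 were lower (SERPINB5, SERPINB7, SERPINB8 and SERPINB13) and 0 higher, with the same counts unadjusted. The median log2 difference was -2.24 over the 9 members, -0.90 over these 7 and 0.05 over all probe sets. The value of -2.24 is that of SERPINB7, which lay at background. This comparison and that of EGF against control share the EGF arrays and are not independent.

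Against the untreated control, EGF plus gefitinib had 3 members lower and 0 higher, where 3.89% of all probe sets were called, 2.19% higher and 1.7% lower. At an unadjusted p under 0.05, 3 were lower and 1 was higher, where 4457 of all 21448 probe sets passed in either direction. Of the 7 members other than SERPINB3 and SERPINB4, SERPINB8 was lower and 0 were higher (1 and 1 unadjusted). SERPINB3 lay within the background in both groups, and SERPINB4 exceeded the limit on 1 control array only, so no difference is given for either. The limma count over all 9 was 0 without control 1, control 2, EGF 1, EGF 2 or EGF plus gefitinib 2 (3 to 4 at an unadjusted p under 0.05) and 1 without EGF plus gefitinib 1. With only the arrays of both groups in the limma fit there were 0 calls (4 at an unadjusted p under 0.05; adjusted p = 0.0671 for SERPINB8).

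The names chosen were those of clade B serpins in the run on chromosome 18, so that the members are neighbours is no result. In the RefSeq gene table the protein-coding genes run KDSR, VPS4B, SERPINB5, SERPINB12, SERPINB13, SERPINB4, SERPINB3, SERPINB11, SERPINB7, SERPINB2, SERPINB10, HMSD, SERPINB8 and CDH7 along chromosome 18. Between the members that rose with EGF, the genes measured did not rise above the background limit. A change within background could not be measured, so an unbroken run of smaller rises cannot be told from a broken one. SERPINB12, at background, stood between SERPINB5 and SERPINB13, and SERPINB11, SERPINB7, SERPINB10 and HMSD, all at background too, between SERPINB3 and SERPINB8. SERPINB2 was not analysed here. Of 8 genes listed as neighbours, HMSD among them within the run, 1 was called with EGF, where 11.9% of all probe sets were called. KDSR, an enzyme of sphingolipid synthesis, rose 1.80-fold (0.85 ± 0.21, limma adjusted p = 0.0415), a call lost in most fits that left out an array (0.71 to 0.98). The median log2 change of these neighbours was 0.07. With gefitinib against EGF, where 18.7% of all probe sets were called, 1 of the 8 was higher, the phosphatase gene PHLPP1 (1.74 ± 0.46, limma adjusted p = 0.0403). It was not called in 4 of 6 such fits, in which the log2 difference ran from 0.92 to 2.56. Only 3 of the 8 neighbours were above the limit on both arrays of any group.

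**Figure D3:**
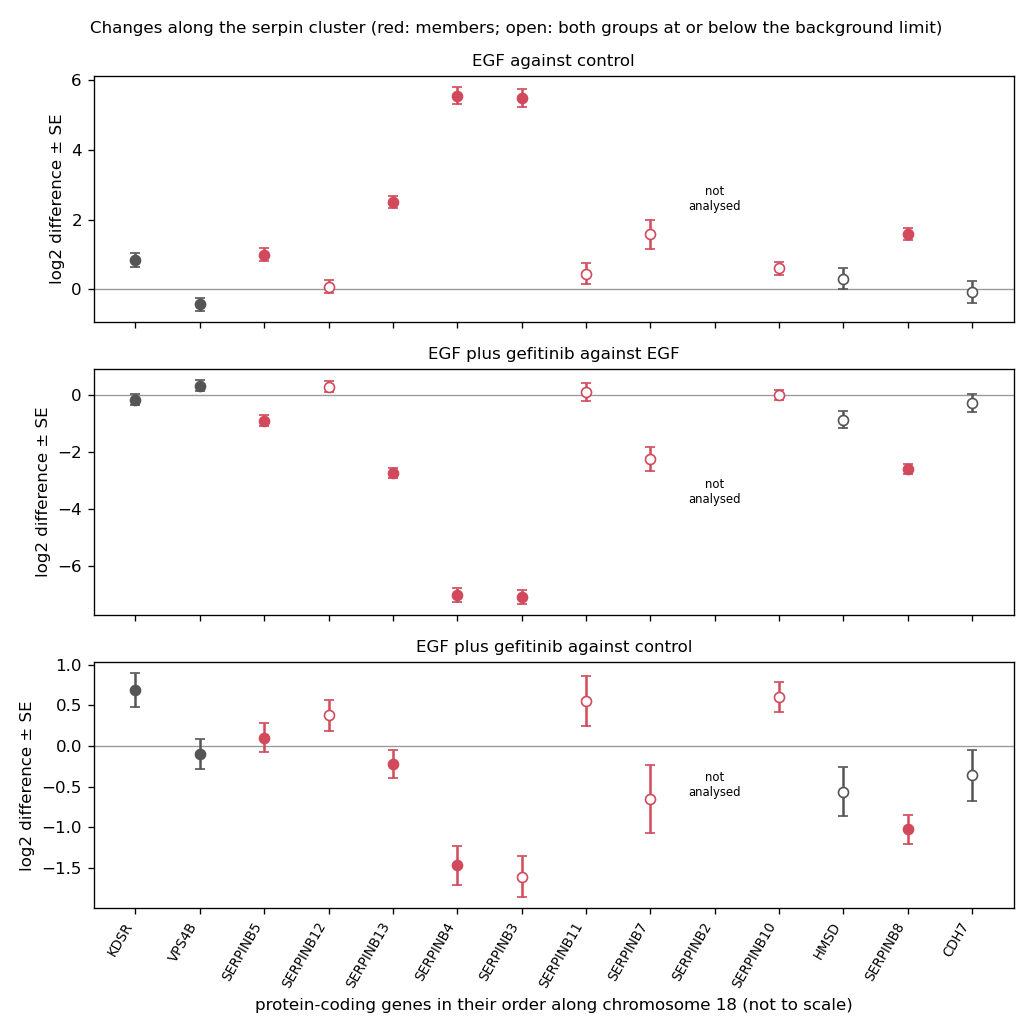
Fitted log2 differences ± SE (limma, n = 2 arrays per group) for each comparison, with genes in their order along chromosome 18 and distances not to scale. Red points are members, grey points their neighbours, and open points have both groups at or below the background limit. The changes rise to 5.56 at SERPINB4 and 5.49 at SERPINB3 with EGF. On the left KDSR was called with EGF and VPS4B was not. CDH7 on the right was not called either, but its group means lay below the background limit.

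Clade B serpins on chromosome 6 were compared with these. SERPINB1, the inhibitor of neutrophil elastase, measured 9.85 and 9.50 in the control, 10.65 and 10.90 with EGF, and 9.45 and 9.56 with EGF plus gefitinib. It rose 2.14-fold with EGF (1.10 ± 0.20, limma adjusted p = 0.016; called in 3 of 6 fits without an array) and was 2.41-fold lower with gefitinib added (-1.27 ± 0.20, adjusted p = 0.00599). SERPINB9, the inhibitor of granzyme B, was at or below the limit on all arrays, with fitted differences of 1.73 ± 0.22 (adjusted p = 0.00463) and -1.92 ± 0.22 (adjusted p = 0.00182). Of these relatives outside the cluster, only SERPINB1 was measured above background. SERPINB6, also on chromosome 6, was not analysed here.

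The list counts that follow are to be read beside the shares of all probe sets called. These were 6.61% higher and 5.3% lower with EGF, and 8.86% and 9.81% with gefitinib against EGF. For EGF plus gefitinib against control they were 2.19% and 1.7%. At an unadjusted p under 0.05, 5677, 6732 and 4457 of the 21448 probe sets passed in these 3 comparisons, in either direction. Among 15 proteases with a probe set that clade B serpins inhibit or bind, 9 were above the limit on both arrays of at least 1 group. With EGF 4 rose and 1 fell (median log2 change -0.08, against -0.03 over all probe sets), and 3 to 4 rose and 0 to 1 fell when an array was left out. PLAT and PLAU, the plasminogen activators of tissue and urokinase type, rose 7.47-fold (2.90 ± 0.21, limma adjusted p = 0.000671) and 4.49-fold (2.17 ± 0.18, adjusted p = 0.00121). FURIN, the target of SERPINB8, rose from 7.17 ± 0.08 to 8.89 ± 0.17 (SD, n = 2), 3.30-fold (adjusted p = 0.00237). Only 1 of 2 control arrays was above the limit, and against the mean control limit the value was 3.04-fold. It was at least 2.68-fold lower with gefitinib than with EGF alone (adjusted p = 0.00115). With gefitinib against EGF, 5 of the 15 were lower and 2 higher, and 3 to 5 lower and 0 to 2 higher when an array was left out. The lysosomal protease CTSB was among those higher (1.01 ± 0.17, adjusted p = 0.00779; not called in 1 of 6 fits without an array). CTSL, the cathepsin that SERPINB3 and SERPINB13 inhibit, was named after its values were seen: it was 1.64-fold lower with gefitinib than with EGF (-0.71 ± 0.19, adjusted p = 0.0428), a call that remained in 1 of 6 fits without an array. Against control, PLAU was still 3.27-fold higher with EGF plus gefitinib (adjusted p = 0.00963; called in 3 of 6 such fits), and the cathepsin CTSS at least 2.21-fold lower (adjusted p = 0.023; called in 2 of 6).

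Of 15 epidermal kallikreins and membrane serine proteases, 11 were above the limit in at least 1 group. With EGF 1 was higher and 2 were lower (median -0.15), and 0 to 1 higher and 0 to 3 lower when an array was left out. KLK7, a kallikrein of skin shedding, rose 2.07-fold (1.05 ± 0.17, limma adjusted p = 0.0111; called in 2 of 6 fits without an array) and was 4.15-fold lower with gefitinib than with EGF alone (-2.05 ± 0.17, adjusted p = 0.000654), when 4 of the 15 were lower and 1 was higher (2 to 5 and 0 to 1 when an array was left out). Against control, EGF plus gefitinib had 5 of the 15 lower and 0 higher (7 and 1 at an unadjusted p under 0.05, limma), and 0 to 3 lower when an array was left out. Other epithelial protease inhibitors, such as cystatins, of which 7 of 15 were above the limit in at least 1 group, had 1 higher and 3 lower with EGF (median -0.00), and 0 to 2 higher and 0 to 2 lower when an array was left out. With gefitinib against EGF 1 of the 15 was higher, CSTA, a cystatin of the epidermis (0.76 ± 0.19, adjusted p = 0.0323; called in 2 of 6 such fits), and 1 was lower, SPINK7, at background and called in 0 of 6 such fits.

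Of 22 squamous differentiation genes with a probe set, 12 were above the limit in at least 1 group. With EGF 2 of the 22 rose and 7 fell (median -0.41), and 2 rose and 1 to 5 fell when an array was left out. Those that rose were SPRR2A and SPRR2D, precursors of the cornified envelope, at least 8.21-fold and at least 8.41-fold (limma adjusted p = 0.000175 and 0.000448), near-identical paralogs whose split is uncertain. KRT10, the keratin of suprabasal cells, fell 6.83-fold (-2.77 ± 0.17, adjusted p = 0.00043), and with EGF plus gefitinib it was still 7.50-fold below the control (-2.91 ± 0.17, adjusted p = 0.00618; called in 4 of 6 fits without an array). IVL, involucrin, another envelope protein, fell by 1.73 ± 0.26 on the log2 scale (adjusted p = 0.00764; called in 4 of 6 such fits), from 7.39 in the control to a value at background. With gefitinib against EGF 5 of the 22 were lower and 0 higher (7 and 0 at an unadjusted p under 0.05, limma), and 3 to 5 lower when an array was left out. Against control 9 were lower and 0 higher (14 and 1 unadjusted), and 0 to 4 lower when an array was left out.

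Of 20 regulators of squamous genes with a probe set, 15 were above the limit in at least 1 group. With EGF 3 of the 20 rose and 4 fell (median 0.04), and 2 to 3 rose and 1 to 5 fell when an array was left out. FOSL1, an AP-1 subunit, measured 9.87 ± 0.11 in the control, 13.88 ± 0.01 with EGF and 9.88 ± 0.47 with EGF plus gefitinib (SD, n = 2). Like SERPINB3, SERPINB4, SERPINB5, SERPINB8 and SERPINB13, it was highest on the EGF arrays, and a link to them was not tested. JUND, another AP-1 subunit, took the opposite course, falling by 1.22 ± 0.25 on the log2 scale with EGF (limma adjusted p = 0.0235; called in 3 of 6 fits without an array) and rising at least 4.34-fold with gefitinib against EGF (adjusted p = 0.00133). The ETS factors also split: ETS1 rose 3.13-fold with EGF (adjusted p = 0.00425), while ELF3 and EHF fell 4.47-fold and 2.57-fold (adjusted p = 0.0032 and 0.00733), the call of EHF being lost in 2 of 6 such fits. With gefitinib against EGF, 5 of the 20 were lower and 3 higher, and 3 to 6 lower and 3 higher when an array was left out.

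Genes nearest to SERPINB3 were sought by the same distance over the 6 arrays, among 7928 named genes above the limit on both arrays of at least 1 group. The 5 nearest that are no members were IL1RL1, the interleukin 33 receptor (1.84 log2 units), the gap junction genes GJB6 (1.95) and GJB2 (1.98), the hyaluronan synthase gene HAS2 (2.03) and SOCS2, a cytokine signalling inhibitor (2.15). The group means of IL1RL1, HAS2 and SOCS2, like those of SERPINB3, lay below the limit in the control and with EGF plus gefitinib, so their distances and order rest partly on background values. SERPINB4 was nearer to SERPINB3 than all 5, but nothing is read from this. Both genes were chosen with their values known, and each probe set may detect RNA of both. For GJB2, the group means were 10.24 in the control, 13.92 with EGF and 8.31 with EGF plus gefitinib, so that like SERPINB8 it ended below the control (-1.93 ± 0.17, limma adjusted p = 0.00731; called in 3 of 6 fits without an array). SERPINB13 was nearest to IL4R, a subunit of the interleukin 4 receptor (0.16), SERPINB8 to RAI14 (0.17) and SERPINB5 to MUL1, a mitochondrial ubiquitin ligase (0.13). These distances are a description over 6 arrays in 3 groups, where many genes with a similar size of change lie close.

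**Figure D4:**
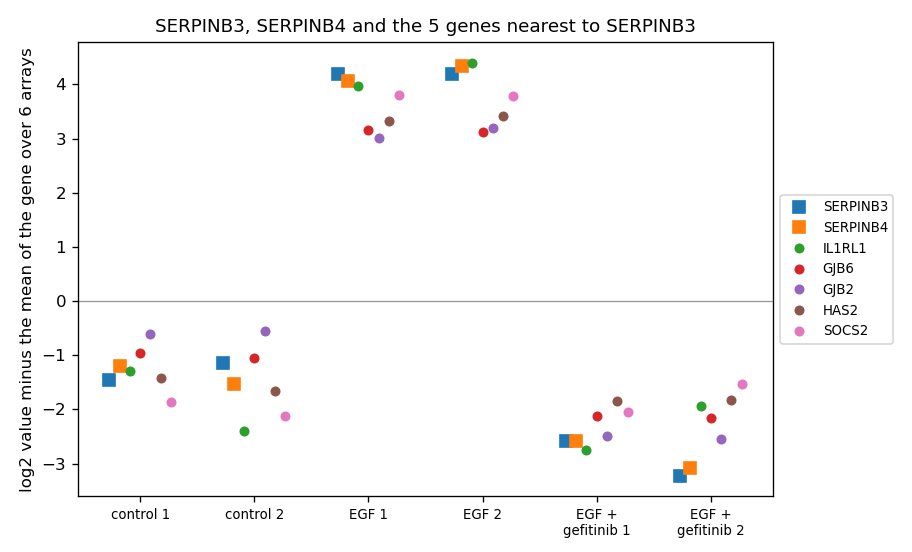
Log2 values of SERPINB3 and SERPINB4 (squares) and of the 5 genes nearest to SERPINB3 (circles), each minus its own mean over the 6 arrays, with genes spread sideways within an array. All 7 are highest on both EGF arrays, which follows from how these genes were chosen. On the other arrays SERPINB3, SERPINB4, IL1RL1, HAS2 and SOCS2 are mostly at background, so their order there is not read.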

How the data were processed

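The authors deposited log2 values. The submitters' processing notes name Transcriptome Analysis Console. For its version, background correction, summarization, normalization and the genome build, the sources used here give nothing. RNA was labelled with biotin by the WT PLUS kit, per the labels. The values were used as given, so a method that pulls arrays together would also shrink changes shared by most genes.

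After 2903 control probe sets were left out, 21448 transcript probe sets entered 1 limma 3.58.1 fit (lmFit and eBayes, R 4.3.3, labels read with jsonlite 2.0.0) with 3 group means, 3 residual and 4.22 prior degrees of freedom and no filter. Tests were two-sided, adjusted by Benjamini-Hochberg over all probe sets and called at adjusted p under 0.05. With 2 arrays against 2 an exact permutation test cannot go below 0.333. The fit was tested on simulated data. All value columns were matched to samples.

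Symbols came from the platform annotation, and all 9 member genes were found by gene identifier in the RefSeq table. No gene coordinates are given. Promoters come from RefSeq (GRCh38.p14), which had a window for 7 members.

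A probe set at or below the 95th percentile of the negative controls on each array of a group is treated as not above background in that group. Folds against it use the mean limit of those arrays and are written "at least". They are left out when this bound was under 1 or neither group was above background.

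The members and lists were chosen with earlier results of these data known. All members were named, as were up to 4 genes of each list by size of the moderated statistic, and the nearest genes by distance. Alternatives were the 2 groups compared alone, a replicate block, each array left out, quantile normalization, median centring, no dim probe sets, an intensity trend, and a 99th percentile limit. Leaving out an array of the group not compared gives the fit of the 2 groups alone, so these fits are not separate alternatives. Putting the control limit in place of the control mean for SERPINB4 and FURIN was added after seeing the data.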

Additional observations from a re-analysis of the deposited data

How the results depend on the processing

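The counts of members called for EGF against control and for EGF plus gefitinib against EGF stayed within 4 to 6 over 12 alternatives, in the same directions. The count for EGF plus gefitinib against control, 3 with all arrays, was 0 with only both groups in the limma fit, 0 with the replicate block (4 and 5 at an unadjusted p under 0.05) and 0 to 1 when an array was left out, and stayed at 3 with quantile normalization, median centring, dim probe sets left out or an intensity trend. Fewer samples enter the fits without an array or a group. The cause of the loss under the block was not tested. Same-numbered arrays did not deviate together (correlations over probe sets of -0.04, 0.02 and -0.00). No shared effect of the replicate number was seen, which cannot show whether the samples were handled in pairs. The block left the members' counts at 5 and 6 for the first and second comparisons.

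Over the whole table, leaving out an array gave 726 to 2506 called probe sets for EGF against control (2554 with all), 1889 to 3406 for EGF plus gefitinib against EGF (4005) and 0 to 247 for EGF plus gefitinib against control (834). The fits with 0 calls had 3280 (without control 1) and 3810 (without EGF plus gefitinib 2) at an unadjusted p under 0.05. With all arrays of a group kept, EGF plus gefitinib against control had 247 with only both groups and 333 with the replicate block. Without dim probe sets 3984 and 2610 were called for EGF and for EGF plus gefitinib against control, and with an intensity trend 4237 and 2770.

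For members at background, leaving out an array turned some signs. The log2 difference ran from -0.073 to 0.23 for SERPINB12 with EGF (turned without control 1, -0.035, or EGF 1). For EGF plus gefitinib against EGF it ran from -0.29 to 0.49 for SERPINB11 (turned without EGF 1 or EGF plus gefitinib 2, -0.11) and from -0.11 to 0.10 for SERPINB10 (turned without EGF 2, 0.092, or EGF plus gefitinib 1). For EGF plus gefitinib against control it ran from -1.35 to 0.038 for SERPINB7 (turned without EGF plus gefitinib 1). None of these 4 differences was called in any setting. Taking the mean over all probe sets of a gene changed nothing, since each member has 1 annotated to it alone. The number of arrays and the signal over background limit these results: for 4 members no level above background was measured.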
